A study of Mus musculus with 7 samples.

Results

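The genes that make, carry, bind and break down retinoic acid were read in RNA sequencing of the mouse heart after myocardial infarction (MI). The set held 9 genes (Aldh1a1, Aldh1a2, Aldh1a3, Rbp4, Crabp1, Crabp2, Cyp26b1, Stra6 and Dhrs3) of the 56980 genes in the table, and all 9 were found in it. They were chosen because Aldh1a2 was higher in every MI heart than in the sham hearts, so the difference between MI and sham is given for them as a description and was not tested. All 7 animals were wild-type male C57BL/6J mice, an inbred laboratory strain, bought at 8 weeks of age and kept for 1 week before surgery. In 3 mice the left coronary artery was tied off (MI group) and in 4 the same operation was done without the ligation (sham group), and myocardial tissue was taken 4 days later. Each mouse gave 1 library, and the labels do not say which part of the heart was sampled or how large each infarct was. Only male mice of a single strain and a single time point were measured.

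Retinol (vitamin A) travels in blood bound to RBP4, and STRA6 takes it up from that carrier. Inside the cell, retinol dehydrogenases oxidize retinol to retinaldehyde, DHRS3 reduces retinaldehyde back to retinol, and the 3 retinaldehyde dehydrogenases encoded by Aldh1a1, Aldh1a2 and Aldh1a3 oxidize retinaldehyde irreversibly to retinoic acid. CRABP1 and CRABP2 bind retinoic acid in the cytoplasm, CYP26 enzymes such as CYP26B1 degrade it, and the remainder acts through nuclear retinoic acid receptors (RAR) paired with retinoid X receptors (RXR). In the developing heart, the epicardium, the mesothelial layer that covers the heart, is a known source of retinoic acid and expresses Aldh1a2.

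Retinoic acid receptors bind pairs of the same short half-site in the same direction. Such pairs were searched in the RefSeq promoter windows of GRCm38.p6, each running from 250 bases before to 50 bases after an annotated start. The half-sites searched were the common form AGGTCA, the form AGTTCA, the form GGGTCA and also the form GGTTCA, read on both strands, and a pair was counted with 1 base (DR1), 2 bases (DR2) or 5 bases (DR5) between them. Windows were at hand for 7 of the 9 genes, with Aldh1a3 and Crabp2 not matched, and none of their 14 windows held a DR1, DR2 or DR5. Among all 32544 windows, 0.224% held a DR1, 0.27% a DR2 and 0.0983% a DR5, and 43.7% held at least 1 single half-site. The Aldh1a2 window (chr9:71215539-71215838, plus strand) is printed whole because this gene defined the set. It lay around the first base of the gene, in the promoter and the start of the first exon, and held none of the 4 half-sites. Its GC content was 78.0% with 50 CpG dinucleotides, against medians of 53.0% and 7 over all windows.
Aldh1a2: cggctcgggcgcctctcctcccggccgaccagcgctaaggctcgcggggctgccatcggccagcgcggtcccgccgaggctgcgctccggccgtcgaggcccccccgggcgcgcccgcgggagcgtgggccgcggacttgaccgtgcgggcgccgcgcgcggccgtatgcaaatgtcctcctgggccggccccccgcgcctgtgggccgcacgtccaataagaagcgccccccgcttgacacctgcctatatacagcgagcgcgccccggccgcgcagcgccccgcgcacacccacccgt

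The 9 genes and the wider retinoid list, 72 genes in all, had 74 windows for 53 genes, and 3 of these genes held a pair, a DR1 in Bco1, which cleaves carotene, and a DR5 in Cyp26a1 and in Rarb. Cyp26a1 and Rarb encode a retinoic acid hydroxylase and a retinoic acid receptor, and are textbook examples of genes that retinoic acid itself induces. Both windows are printed in part (Cyp26a1 at chr19:37697736-37697832, plus strand, and Rarb at chr14:16575473-16575569, minus strand) so that their levels given further on can be read beside them. Capitals mark the half-sites. In Cyp26a1 the pair lies 32 to 16 bases before the start and runs against the gene, so that each half-site AGTTCA reads TGAACT here. In Rarb the pair lies with GGTTCA first and then AGTTCA, 53 to 37 bases before the start, and the single GGGTCA before it belongs to no pair. A match is a description of the letters and does not show that a receptor is bound.
Cyp26a1: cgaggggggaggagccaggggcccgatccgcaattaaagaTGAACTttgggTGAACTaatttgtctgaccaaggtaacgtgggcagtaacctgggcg
Rarb: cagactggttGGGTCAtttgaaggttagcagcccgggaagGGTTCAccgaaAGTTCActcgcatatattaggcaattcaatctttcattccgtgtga

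The authors deposited FPKM values, which are fragments scaled by the length of the gene and by the size of the library, and the steps between the values gave the whole fragments behind them. The libraries held between 19977712 and 23473544 fragments in the sham group and between 21781014 and 23610871 in the MI group. MI replicate 2 stood apart from the other MI hearts and close to the sham hearts. Across the 11431 genes tested, its Pearson correlation on the log2 scale was 0.984 to 0.987 with the sham hearts, whereas MI replicate 1 correlated with them at 0.878 to 0.881 and MI replicate 3 at 0.903 to 0.906. MI replicates 1 and 3 correlated with each other at 0.984. Mitochondrial genes held 26.5% to 27.4% of the fragments in the sham hearts and 28.2% in MI replicate 2, but 13.6% and 14.9% in MI replicates 1 and 3. The median gene was higher in MI by 0.21 on the log2(FPKM + 1) scale, and by 0.33 without MI replicate 2. The log2 differences of the 9 genes are therefore given with and without that heart, and why it stood apart was not tested.

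Of the 9 genes, 5 were higher in every MI heart than in every sham heart (Aldh1a1, Aldh1a2, Aldh1a3, Stra6 and Dhrs3), 0 were lower in every MI heart, and 4 overlapped between the groups (Rbp4, Crabp1, Crabp2 and Cyp26b1). Among the 30504 genes above 0 in any heart, 12.0% were higher in every MI heart and 4.34% were lower, and among the 11431 genes tested 16.1% and 9.0% were. The set was chosen on this comparison, so nothing is read from its count against those shares. MI replicate 2 was the lowest MI heart for 9 of the 9 genes, tied with MI replicate 1 for Crabp1. MI replicate 1 was the highest for 6 genes and MI replicate 3 for 3. The plot of the 9 genes by heart shows these patterns on the FPKM scale. In whole tissue, more cells of a type and more RNA per cell cannot be told apart, nor can fewer cells and less RNA per cell.

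**Figure D1:**
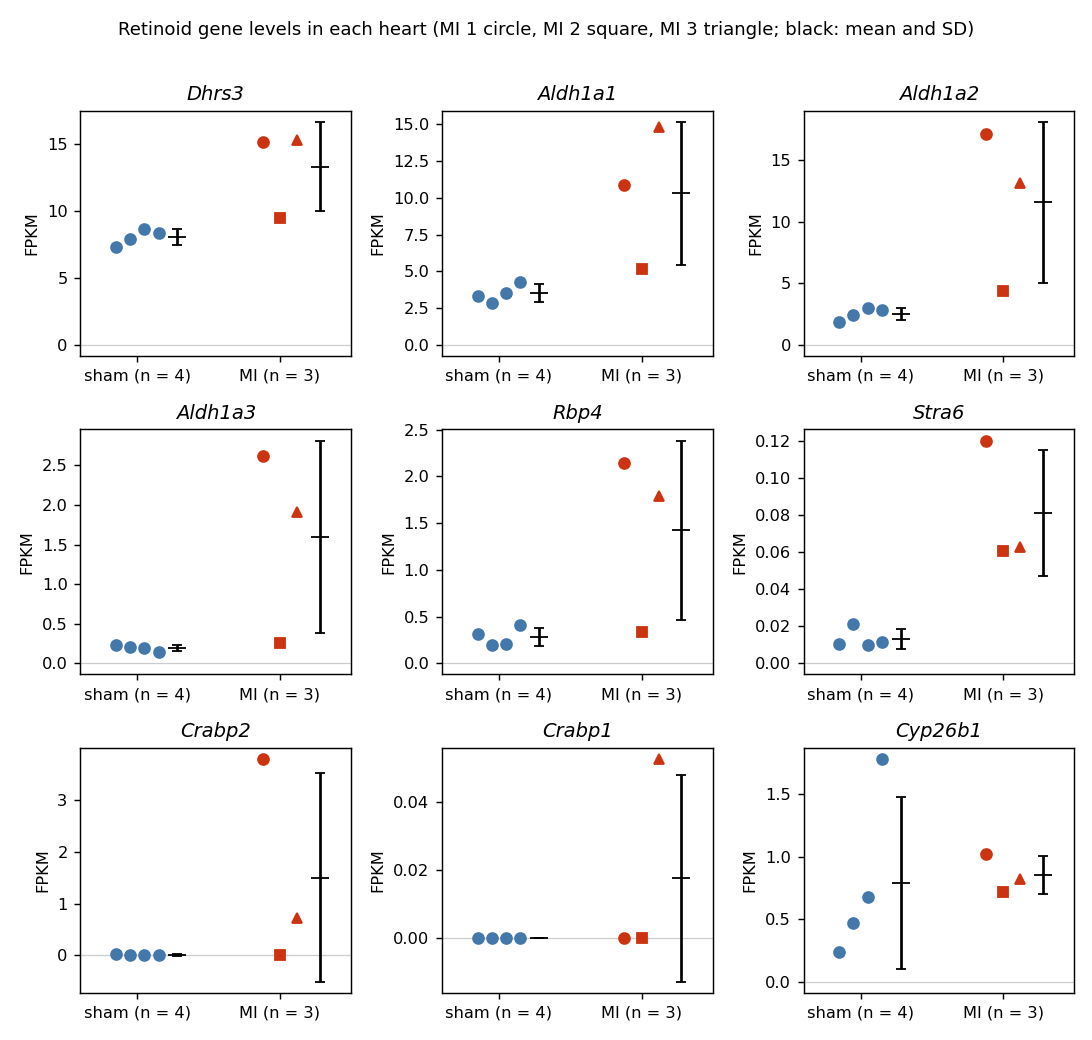
FPKM of the 9 retinoid genes in each heart, 1 panel a gene with its own linear axis; blue points are the 4 sham hearts, red symbols the 3 MI hearts, and black marks the group mean ± SD. MI replicates 1 and 3 lie well above the sham hearts for Aldh1a1, Aldh1a2, Aldh1a3, Rbp4 and Dhrs3, with MI replicate 2 between them and the sham hearts or among the sham hearts, while the Cyp26b1 groups overlap.

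Aldh1a2 (ENSMUSG00000013584, chr9:71215789-71296243, plus strand, mm10) encodes the retinaldehyde dehydrogenase that supplies most retinoic acid in the early embryo. Its level was 1.87, 2.38, 2.99 and 2.81 FPKM in sham replicates 1 to 4, and 17.2, 4.41 and 13.2 FPKM in MI replicates 1 to 3. Every MI heart lay above every sham heart, MI replicates 1 and 3 by a wide margin and MI replicate 2 by the least. The fragments behind these values were 95, 117, 159 and 127 in the sham hearts, against 846, 226 and 705 in the MI hearts. The mean was 2.51 ± 0.499 FPKM in the sham group (SD, n = 4) and 11.6 ± 6.52 FPKM in the MI group (SD, n = 3), 4.61-fold higher. Single MI hearts stood at 6.83, 1.75 and 5.25 times the sham mean. On the log2(FPKM + 1) scale the difference was 1.68 (SE 0.389), which is 1.47 above the median gene, and it was 2.20 without MI replicate 2.

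Aldh1a1 (ENSMUSG00000053279, chr19:20492715-20643465, plus strand) encodes a cytosolic enzyme of the same reaction, and also oxidizes other aldehydes. Its level was 3.33, 2.81, 3.54 and 4.29 FPKM in sham replicates 1 to 4, and 10.9, 5.19 and 14.9 FPKM in the MI replicates. The groups did not overlap, and here MI replicate 3 was the highest heart. These levels rest on 360 to 506 fragments in the sham hearts and on 1399, 694 and 2070 in the MI hearts. The mean was 3.49 ± 0.613 FPKM in the sham group and 10.3 ± 4.85 in the MI group, 2.95-fold higher. Its log2 difference was 1.24 (SE 0.302) with all hearts, which is 1.03 above the median gene, and 1.62 without MI replicate 2. Aldh1a7, a mouse paralog of Aldh1a1 in the same region, shares 281 stretches of 31 bases with it, which is 5.69% of those of Aldh1a1 and 13.8% of those of Aldh1a7. Reads from these stretches could be counted for either gene, and Aldh1a7 was listed at 2.26% to 2.59% of the Aldh1a1 level in the sham hearts, against 2.66%, 0.412% and 4.42% in the MI hearts.

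Aldh1a3 (ENSMUSG00000015134, chr7:66390890-66427517, minus strand), the isozyme known from the developing eye and nose, was the least abundant of the 3 enzymes. It stood at 0.237, 0.203, 0.187 and 0.138 FPKM in the sham hearts, against 2.62, 0.251 and 1.92 FPKM in the MI hearts. MI replicate 2 exceeded the highest sham heart only narrowly, 31 fragments against 29, so that the lack of overlap rests on counts that sampling alone could reorder. MI replicates 1 and 3, with 312 and 247 fragments, lay far above both. The group mean was 0.191 ± 0.0413 FPKM in sham and 1.60 ± 1.22 in MI, an 8.36-fold ratio, and the log2(FPKM + 1) difference of 0.99 understates this because the levels are low. It was 1.45 without MI replicate 2. The gene did not reach 1 FPKM in 3 hearts and so was not among the genes tested.

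The 3 enzymes together summed to 5.40 to 7.24 FPKM in the sham hearts and to 30.7, 9.85 and 29.9 FPKM in MI replicates 1 to 3. All MI hearts lay above the sham range. Aldh1a2 made up 34.4% to 44.5% of this sum in the sham hearts, against 56.0%, 44.8% and 44.0% in the MI hearts, so its share was clearly outside the sham range only in MI replicate 1. Aldh1a1 held 52.1% to 61.2% of the sum in the sham hearts, against 35.5%, 52.7% and 49.6% in the MI hearts. Aldh1a3 made up 1.90% to 4.35% in sham, and 8.56%, 2.54% and 6.39% in MI. The ratio of Aldh1a2 to Aldh1a1 was 0.562 to 0.848 in the sham hearts but 1.58, 0.849 and 0.888 in the MI hearts. The higher sum in MI replicate 3 thus came with nearly the sham proportions of the main isozymes, whereas in MI replicate 1 Aldh1a2 exceeded Aldh1a1. The bar plot of gene sums shows this make-up heart by heart.

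Dhrs3 (ENSMUSG00000066026, chr4:144892827-144928209, plus strand) encodes the retinaldehyde reductase that opposes retinoic acid synthesis, and it was the most abundant of the 9 genes in the sham hearts. Its level was 7.32, 7.90, 8.67 and 8.37 FPKM in sham replicates 1 to 4, and 15.1, 9.45 and 15.4 FPKM in the MI replicates, from 1007 to 2224 fragments a heart. The groups did not overlap, and MI replicate 2 was just above the highest sham heart. The group mean was 8.06 ± 0.589 FPKM in sham and 13.3 ± 3.34 in MI, 1.65-fold higher. Its log2 difference was 0.63 (SE 0.171), which is 0.42 above the median gene, and it was 0.84 without MI replicate 2. Relative to Dhrs3, the summed level of the retinaldehyde dehydrogenases was 0.683 to 0.865 in the sham hearts, against 2.03, 1.04 and 1.95 in the MI hearts. The sum includes Aldh1a2, on which the set was chosen, so nothing is read from this ratio.

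Rbp4 (ENSMUSG00000024990, chr19:38116629-38125281, minus strand), the plasma carrier of retinol made mainly in liver and fat, stood at 0.318, 0.198, 0.203 and 0.405 FPKM in the sham hearts, against 2.14, 0.337 and 1.795 FPKM in the MI hearts. The groups overlapped, because MI replicate 2 lay within the sham range while MI replicates 1 and 3 were above it. Only 9 to 17 fragments a heart were found in the sham group, and 98, 16 and 89 in the MI group. The log2(FPKM + 1) difference was 0.83 with an SD of 0.67 among the MI hearts, and 1.21 without MI replicate 2.

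Stra6 (ENSMUSG00000032327, chr9:58063788-58153996, plus strand), the membrane receptor that takes up retinol from RBP4, was close to its detection limit. Its level was 0.0102, 0.0210, 0.00971 and 0.0114 FPKM in the sham hearts, from 2, 4, 2 and 2 fragments, and 0.120, 0.0604 and 0.0628 FPKM in the MI hearts, from 23, 12 and 13 fragments. The groups did not overlap, and this is the gene among the 9 in which MI replicate 2 stood nearest to MI replicate 3. A count of 3 fragments corresponds to 0.0145 to 0.0172 FPKM, depending on the heart. Summed over the group and per fragment sequenced, the ratio of MI to sham was 6.18, with a 95% exact binomial interval from 3.09 to 13.7 that covers counting error only. On the log2(FPKM + 1) scale this is a difference of 0.09, and 0.11 without MI replicate 2, which the pseudocount of 1 sets for a gene this low.

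Crabp2 (ENSMUSG00000004885, chr3:87948666-87953376, plus strand) encodes the binding protein that passes retinoic acid to its nuclear receptors. It was found with 1 fragment in sham replicate 1 and with 0 in the other sham hearts. In the MI hearts it had 126, 0 and 26 fragments, or 3.79, 0 and 0.720 FPKM. MI replicate 2 thus held none, and the groups overlapped. A count of 0 in that library allows a level of up to 0.0867 FPKM, the value of 3 fragments. Summed over the groups and per fragment sequenced the ratio was 196, with a 95% interval from 34.6 to 7778 for counting error only, and 126 of the 152 MI fragments came from MI replicate 1. The log2(FPKM + 1) difference was 1.00 with all hearts, 1.51 without MI replicate 2 and 0.38 without MI replicate 1. Its paralog Crabp1 (ENSMUSG00000032291, chr9:54764748-54773110, plus strand), which also binds retinoic acid in the cytoplasm, was listed at 0 in 6 hearts and had 1 fragment in MI replicate 3. A count of 0 for Crabp1 allows up to 0.159 to 0.187 FPKM, so no difference was detectable at this depth, and its log2(FPKM + 1) difference was 0.03 with all hearts and 0.04 without MI replicate 2.

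Cyp26b1 (ENSMUSG00000063415, chr6:84571414-84593908, minus strand) encodes a cytochrome P450 that hydroxylates retinoic acid for disposal. It varied widely among the sham hearts, at 0.236, 0.467, 0.675 and 1.78 FPKM from 48, 92, 144 and 323 fragments, while the MI hearts stood at 1.02, 0.720 and 0.821 FPKM. All 3 MI hearts lay within the sham range. The mean was 0.789 ± 0.684 FPKM in the sham group and 0.854 ± 0.153 in the MI group. The log2 difference of 0.12 was smaller than the SD among the sham hearts on that scale, 0.50, was 0.17 without MI replicate 2, and ran from -0.04 to 0.38 over the alternatives, the highest with a pseudocount of 0.1.

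Among the sham hearts, which show the levels without an infarct, Dhrs3 was highest at 8.06 FPKM, followed by Aldh1a1 at 3.49, Aldh1a2 at 2.51, Cyp26b1 at 0.789, Rbp4 at 0.281, Aldh1a3 at 0.191, Stra6 at 0.0131, Crabp2 at 0.00701 and Crabp1 at 0. FPKM is per length, but the length behind the values was not the annotated exon length for 7 of the 9 genes (6136 against 2927 bases for Dhrs3, for example), which limits how closely levels compare between genes. The ranges of neighbours were apart between Dhrs3 and Aldh1a1, between Aldh1a2 and Cyp26b1, and between Aldh1a3 and Stra6. The ranges overlapped for Aldh1a1 and Aldh1a2, for Cyp26b1 and Rbp4, for Rbp4 and Aldh1a3, for Stra6 and Crabp2, and for Crabp2 and Crabp1. Within each of the 4 sham hearts Aldh1a1 nonetheless exceeded Aldh1a2. With 4 hearts no exact paired test can reach a two-sided p of 0.05, so the order was not tested.

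The remaining genes of retinoid metabolism were taken from a fixed list of 63, of which 26 passed the filter of at least 1 FPKM in at least 3 hearts and 6 were listed at 0 in every heart. With limma and adjustment by the Benjamini-Hochberg method over all 11431 genes, 0 of the 26 passed an adjusted p of 0.05 in either direction, as also with voom on the recovered fragments. Of all genes tested, 2 (0.0175%) passed as higher and 1 (0.00875%) as lower. At an unadjusted p of 0.05, 6 were higher and 3 lower, against 29.5% and 9.85% of all genes tested. Without MI replicate 2, 17 of the 26 rose and 4 fell at an adjusted p of 0.05, against 57.0% and 14.7% of all genes. The median difference of the 26 was 0.22, near the 0.21 of all genes. In every MI heart above every sham heart were 8 of the 63, and below were 3, near the 12.0% and 4.34% of all genes above 0. The 6 genes at 0 in every heart count in the 63 but not in those shares.

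Among the genes of retinol binding and storage, Rbp7, a cellular retinol-binding protein of capillary endothelium and fat, was at 7.79 to 10.1 FPKM in sham and at 9.84, 11.3 and 13.5 FPKM in MI, and the groups overlapped. Lrat, which esterifies retinol for storage, ran in the opposite direction with overlap, at 1.17, 1.06, 0.581 and 0.243 FPKM in the sham hearts, against 0.154, 0.429 and 0.237 FPKM in the MI hearts. Rbp7 and Lrat, like the other genes named below that are neither nuclear receptors nor Dhrs4 or Ret, were chosen after their values were seen.

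Of the 21 genes for retinol oxidation and retinaldehyde reduction, 7 passed the filter and 0 passed the limma test in either direction at an adjusted p of 0.05, with 0 higher and 1 lower at an unadjusted p of 0.05, against 29.5% and 9.85% of all genes. Without MI replicate 2, 2 of the 7 rose and 2 fell at that adjusted threshold, where 57.0% and 14.7% of all genes did. Rdh10, the main retinol dehydrogenase of the embryo, was at 1.04 to 1.18 FPKM in sham and at 5.71, 0.980 and 1.795 FPKM in MI, with MI replicate 2 below every sham heart. Rdh11, which encodes a retinaldehyde reductase, was at 0.766 to 0.906 FPKM in sham and at 2.85, 0.994 and 2.34 FPKM in MI, without overlap. Dhrs4, a peroxisomal reductase that acts on retinaldehyde, was lower in every MI heart, at 14.6 to 15.2 FPKM in sham and 9.38, 13.3 and 10.6 FPKM in MI. Its log2 difference was -0.40 (SE 0.122, adjusted p = 0.108 with limma), and -0.53 without MI replicate 2. In all, 3 of the 21 were higher and 1 was lower in every MI heart, near the 12.0% and 4.34% of all genes above 0. The 21 include 3 genes at 0 in every heart, which those shares leave out. Besides Rdh11 the higher genes were Adh7, with 1 fragment in each MI heart against 0 in sham, and Dhrs9, with 3 fragments in MI replicate 2 against 2 in the highest sham heart.

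The levels of Cyp26a1 and Cyp26b1, which encode CYP26 enzymes, were set side by side as a description, and a difference between them was not tested. Cyp26a1, with the DR5 printed above, had 0, 1, 2 and 2 fragments in the sham hearts, against 116, 3 and 62 in the MI hearts, or 0 to 0.0409 FPKM against 2.17, 0.0541 and 1.07 FPKM. MI replicates 1 and 3 were far above the sham hearts, and MI replicate 2 exceeded them by a single fragment. Over the groups the ratio was 46.6 per fragment sequenced, with a 95% interval from 19.6 to 145 for counting error only. Of the summed Cyp26a1 and Cyp26b1 level, Cyp26a1 held 0% to 4.90% in the sham hearts, against 68.0%, 6.99% and 56.6% in the MI hearts. The ratio of the summed synthesis genes to summed Cyp26a1 and Cyp26b1 was 3.97 to 23.1 in the sham hearts, against 9.60, 12.7 and 15.8 in the MI hearts, entirely within the sham range. The synthesis sum includes Aldh1a2, on which the set was chosen, so nothing is read from this ratio. The wide sham range followed Cyp26b1, whose level in sham replicate 4 was the highest of all hearts.

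**Figure D2:**
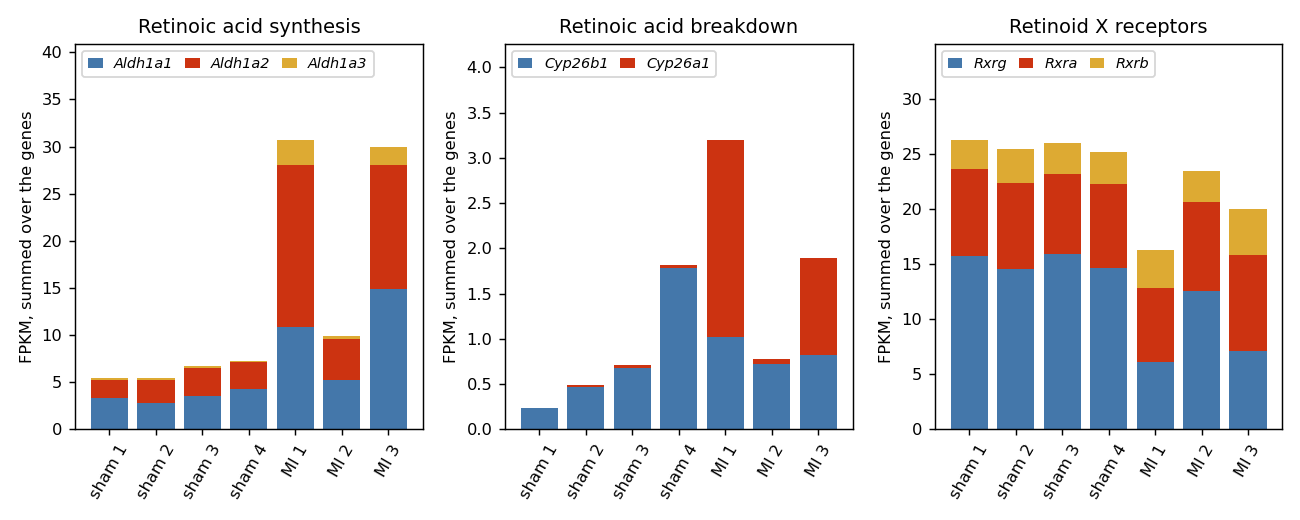
Stacked FPKM of the retinoic acid synthesis genes, the breakdown genes and the retinoid X receptors in each heart, on linear axes from 0. Synthesis sums are 30.7 and 29.9 FPKM in MI replicates 1 and 3 against most 7.24 in sham, Cyp26a1 makes up 68.0% and 56.6% of the breakdown sum in those hearts, and the Rxrg part of the receptor sum is smallest in them.

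The nuclear receptors were all tested, and 0 of the 6 passed at an adjusted p of 0.05 in limma, with 2 higher and 1 lower at an unadjusted p of 0.05, where 29.5% and 9.85% of all genes were. Without MI replicate 2, 3 of the 6 rose and 1 fell at the adjusted threshold, against 57.0% and 14.7% of all genes. Rara was at 2.48 to 2.65 FPKM in the sham hearts, against 7.72, 2.59 and 5.51 FPKM in the MI hearts, with MI replicate 2 inside the sham range (log2 difference 0.72, SE 0.271, adjusted p = 0.112 with limma, and 1.08 without MI replicate 2). Rarg was at 3.14 to 3.94 FPKM in sham and at 11.4, 4.17 and 9.72 FPKM in MI without overlap (0.96, SE 0.286, adjusted p = 0.108, and 1.35 without MI replicate 2). Rarb, the receptor with the DR5 printed above, was at 1.44 to 2.04 FPKM in sham and at 1.16, 1.47 and 1.303 FPKM in MI (-0.20, SE 0.107, adjusted p = 0.186, and -0.25 without MI replicate 2). Cyp26a1 and Rarb thus both held a DR5, while the level in MI replicates 1 and 3 was above the sham hearts for Cyp26a1 and below them for Rarb. The share of Rarb in the summed RAR level was 19.6% to 24.8% in sham and 5.71%, 17.8% and 7.88% in MI.

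Among the retinoid X receptors, Rxrg, the isoform of striated muscle and brain, was lower in every MI heart, at 14.6 to 15.9 FPKM in sham and 6.07, 12.6 and 7.14 FPKM in MI. The log2 difference was -0.82 (SE 0.213, adjusted p = 0.108 with limma), and -1.09 without MI replicate 2. Rxra was at 7.29 to 7.91 FPKM in sham and at 6.78, 8.07 and 8.73 FPKM in MI, on both sides of the sham range. Rxrb was at 2.63 to 3.03 FPKM in sham and at 3.42, 2.85 and 4.15 FPKM in MI. The RXR sum was below the sham range in each MI heart, at 16.3, 23.5 and 20.02 FPKM against 25.2 to 26.3 FPKM. Rxrg held 57.4% to 61.3% of it in sham and 37.3%, 53.5% and 35.7% in MI.

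Of 20 genes known to be induced by retinoic acid in other tissues, 9 passed the filter and 0 passed at an adjusted p of 0.05 in limma, with 2 higher and 1 lower at an unadjusted p of 0.05, beside 29.5% and 9.85% of all genes. Without MI replicate 2, 7 of the 9 rose and 1 fell at the adjusted threshold, beside 57.0% and 14.7% of all genes. Of the 20, 3 were higher and 1 was lower in every MI heart, beside 12.0% and 4.34% of all genes above 0. Tgm2, encoding tissue transglutaminase, was at 55.2 to 73.9 FPKM in sham and at 141, 73.0 and 148 FPKM in MI, with MI replicate 2 inside the sham range. Rarres1 was at 0.151 to 0.418 FPKM in sham and at 3.81, 0.433 and 1.66 FPKM in MI, without overlap in FPKM, although MI replicate 2 and sham replicate 3 each had 13 fragments. Gprc5a was at 0.385 to 0.695 FPKM in sham and at 1.37, 0.997 and 1.99 FPKM in MI, also without overlap. In each of these 3 genes MI replicate 2 was the lowest of the MI hearts. Hoxa5, a homeobox gene, was at 0.182 to 0.285 FPKM in sham and at 2.62, 0.0941 and 1.96 FPKM in MI, so MI replicate 2 lay below the sham range. Ret, a receptor tyrosine kinase gene, was lower in every MI heart, at 1.74 to 2.06 FPKM in sham against 0.966, 1.46 and 0.922 FPKM (log2 difference -0.47, SE 0.112, adjusted p = 0.108 with limma, and -0.58 without MI replicate 2).

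**Figure D3:**
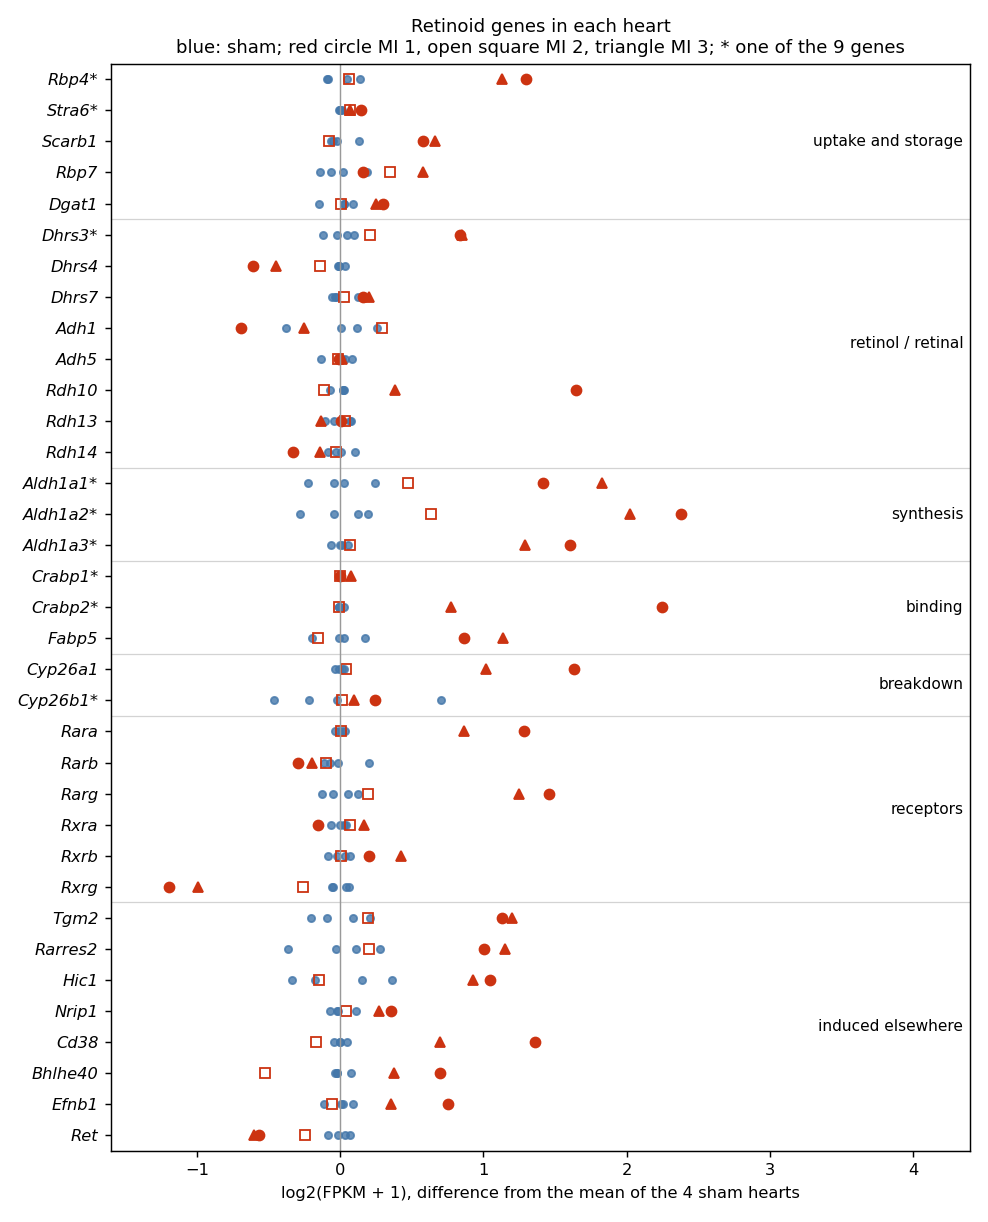
Difference of each heart from the mean of the 4 sham hearts on the log2(FPKM + 1) scale, for the 9 genes (asterisks) and tested retinoid genes plus Cyp26a1, in the order of the pathway; blue points are sham hearts, and red circles, open squares and red triangles are MI replicates 1, 2 and 3. The open squares lie near 0 for most genes, while MI replicates 1 and 3 lie above 0 for Aldh1a1, Aldh1a2, Aldh1a3, Rara and Rarg and below 0 for Dhrs4, Rxrg and Ret.

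The cells that could carry these transcripts were read through marker lists. These lists were chosen with earlier results of these data known. Counts of their genes stand beside the shares of all genes as a description, and nothing is read from them. Cardiomyocyte markers were present in every heart, at a summed 12590 to 13780 FPKM in sham and 9020, 12600 and 9583 FPKM in MI, so the tissue matched its label. Epicardial and mesothelial markers were higher in every MI heart for 9 of 10 genes, Wt1 excepted, against 12.0% of all genes above 0 and 16.1% of those tested, and none of the 10 was at 0 throughout. Their sum was 5.60 to 11.5 FPKM in the sham hearts, against 35.4, 23.4 and 49.7 FPKM in the MI hearts. In MI replicate 2 the sum of this list stood further from the sham hearts than most others, but its genes differed. Msln, a mesothelial surface protein gene, was at 0.556 to 1.96 FPKM in sham and at 6.01, 5.32 and 7.68 FPKM in MI. Tbx18 in MI replicate 2, at 1.216 FPKM, was only just above the sham range of 1.01 to 1.125 FPKM. Wt1 in that heart, at 0.451 FPKM, was below the sham range of 0.481 to 0.640 FPKM. The part of the epicardial and mesothelial markers in the Aldh1a2 difference was not tested.

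Fibroblast markers summed to 324.9 to 386.1 FPKM in sham and to 2384, 495 and 1946 FPKM in MI, and 6 of the 8 were higher in every MI heart, against 16.1% of all genes tested. Macrophage markers summed to 20.9 to 26.6 FPKM in sham and to 115, 27.5 and 99.0 FPKM in MI, 4 of 7 without overlap against the same 16.1%. Dendritic cell markers, of interest because dendritic cells of the gut express Aldh1a2, summed to 2.40 to 2.53 FPKM in sham and to 9.23, 2.33 and 8.35 FPKM in MI. Of these 6 genes 0 were free of overlap, where 12.0% of all genes above 0 were higher and 4.34% lower in every MI heart. MI replicate 2 thus lay just above the sham range for macrophages and below it for dendritic cells. Smooth muscle and pericyte markers were at 207 to 247 FPKM in sham and at 317, 211 and 358 FPKM in MI, and endothelial markers at 116 to 135 FPKM and at 142, 108 and 154 FPKM. Their part in the results was not tested.

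Marker lists of fat, blood and liver cells were read in the same way. Adipocyte markers summed to 0.184 to 0.830 FPKM in sham and to 92.7, 0.216 and 280 FPKM in MI. In this list 0 of 6 genes were free of overlap, where 12.0% of all genes above 0 were higher and 4.34% lower in every MI heart. The adipocyte sums were high in MI replicates 1 and 3, the hearts in which Rbp4 was also above the sham range. Lymphocyte markers summed to 0.527 to 0.621 FPKM in sham and to 26.3, 0.465 and 4.43 FPKM in MI. Neutrophil markers summed to 0.300 to 1.27 FPKM in sham and to 13.6, 0.485 and 7.25 FPKM in MI, although Ly6g, a defining neutrophil gene, was at 0 in every heart. Hepatocyte markers summed to 0.182 to 5.43 FPKM in sham and to 76.4, 1.14 and 83.3 FPKM in MI, with Hp at 72.8, 0.428 and 82.6 FPKM in MI and so nearly all of the sum in MI replicates 1 and 3, while Alb, the defining gene, was at 0.0831 to 3.48 FPKM in sham and 2.45, 0.638 and 0.463 FPKM in MI. The part of these cell types in the results was not tested.

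**Figure D4:**
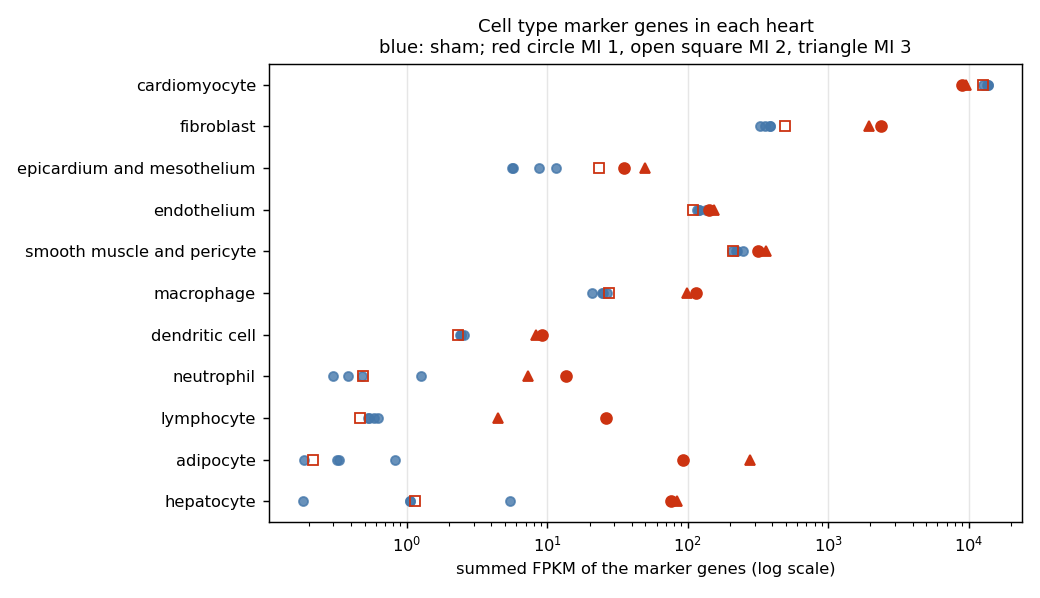
Summed FPKM of 11 cell type marker lists in each heart on a log axis; blue points are sham hearts, and red circles, open squares and red triangles are MI replicates 1, 2 and 3. The open squares of MI replicate 2 lie among or near the sham points for most lists and clearly above them for epicardium and mesothelium, at 23.4 against most 11.5 FPKM.

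The genes whose levels most resembled Aldh1a2 were sought by Pearson's r on the log2(FPKM + 1) scale over the 7 hearts, as a description of 7 points that share their libraries and are spread mainly by MI replicates 1 and 3. The 5 closest were Ccdc82 (0.998), Heg1 (0.998), 6430548M08Rik (0.998), Crispld2 (0.997) and Aida (0.997). Crispld2, for example, was at 8.20 to 9.62 FPKM in the sham hearts, against 25.6, 11.9 and 23.3 FPKM in the MI hearts, the same order of the MI hearts as Aldh1a2. As many as 2133 of the 11430 other tested genes exceeded an r of 0.95, so a high r is common here and marks no particular relation. Within the retinoid genes, Dhrs3 reached 0.993 (rank 40), Rarg 0.992 (rank 56) and Aldh1a1 0.955 (rank 1850). Among marker genes looked up, the fibroblast genes Col1a1, Pdgfra and Tcf21 reached 0.979, 0.973 and 0.949, and the epicardial and mesothelial genes Tbx18, Upk1b, Krt19, Upk3b and Msln 0.971, 0.944, 0.91, 0.885 and 0.876. The macrophage gene Cd68 reached 0.945, and the fibroblast and the epicardial and mesothelial genes overlapped in r.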

How the data were processed

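Myocardial RNA of 7 mice, 4 sham and 3 MI, was sequenced, 1 library a mouse, with the groups as the treatment labels give them. FPKM values for 56980 Ensembl genes were deposited by the authors. The submitters' processing notes name CASAVA 1.8, HISAT2, SAMtools 1.3.1, edgeR and the build mm10 without their roles, and the annotation, the counting step and the use of strand are not given in the sources used here.

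Symbols and positions came from GENCODE M21 on GRCm38 (52125 of the identifiers, 91.5%), and promoter sequences from RefSeq on GRCm38.p6. Whole fragments were recovered from the steps of the FPKM values, with a tolerance of 0.05 fragments, for all 30504 genes above 0. The gene length behind these steps equalled the GENCODE exon length for Aldh1a2 and Crabp1 and differed for the other 7 genes, so that for genes of few fragments the numbers are the smallest the steps allow. Precision rests on the fragments behind each value. The table was log2(FPKM + 1) transformed, and the 11431 genes at 1 FPKM or more in at least 3 hearts were fitted with limma 3.58.1 (lmFit, eBayes with trend) in R 4.3.3, with Benjamini-Hochberg adjustment at 0.05. Sums and intervals were computed with SciPy 1.17.1, NumPy 2.4.6 and pandas 2.3.3 under Python 3.11.15, and plots were drawn with matplotlib 3.10.9. The fit was tested on simulated data with the sham spread in both groups, where 199 of 200 changed genes and 6 unchanged ones were called among 11431. The real MI hearts were more spread, for Aldh1a2 with a log2 SD of 0.923 against 0.212 in sham. The simulation therefore does not measure how many changed genes are found in these data.

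The 9 genes, the marker lists and the retinoid lists were chosen with earlier results of these data known. Named beyond the 9 were all 6 nuclear receptors and, per list, up to 3 tested genes with the largest difference whose groups did not overlap, of which Dhrs4 and Ret are given and 1 gene is not reported here, and the 5 genes most like Aldh1a2. Others were named after their values were seen. P-values measure the spread between these mice only. Intervals on ratios of fragments are exact binomial ones. Results were recomputed without the filter, with a pseudocount of 0.1, as TPM, with voom on the recovered fragments, with sample weights, with median log-ratio scaling, with a replicate block and with each heart left out.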

Additional observations from a re-analysis of the deposited data

Results flagged for a closer look

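In 46 sets of 4 sham hearts (the 9 genes, the other genes named and the marker sums), the gap of an end heart to its nearest neighbour was divided by the whole range. This part exceeded Dixon's critical value for 4 values in 5 sets, where chance alone gives about 1 in 20. For Crabp2 the gap was 1.0 of the range, since a single fragment in sham replicate 1 stood against 0 in the others. For Stra6 it was 0.850, with 4 fragments in sham replicate 2 against 2 in each of the other sham hearts. For Dhrs4 it was 0.837 within a narrow range of 14.6 to 15.2 FPKM, and for Rdh10 it was 0.879 within 1.04 to 1.18 FPKM, both from sham replicate 2. For the summed hepatocyte markers it was 0.832, where sham replicate 4 reached 5.43 FPKM, mostly Alb. The MI group of 3 hearts is too small for this comparison, so MI replicate 2 was not examined in this way.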

How the results depend on the processing

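The limits are those of 4 against 3 hearts, of which MI replicate 2 resembled the sham hearts. Of all genes tested, 2 were called higher and 1 lower, which became 20 and 1 without the filter, 5 and 1 at a pseudocount of 0.1, 2 and 0 as TPM, 10 and 4 under median log-ratio scaling, 1 and 1 using voom on recovered fragments, and 7636 and 2316 with sample weights, which gave MI replicate 3 a weight of 437 against 0.0906 and 0.0217 for the other MI hearts. With single hearts left out the counts ran from 0 to 6512 higher and from 0 to 1683 lower, the highest without MI replicate 2. With a replicate block 0 were called in either direction. Deviations from the group means showed no clear correlation between hearts of the same number (0.074, -0.016 and -0.080). Because MI replicate 2 stood apart within its group, these values cannot decide whether the numbers pair the animals. Of the 26 other retinoid genes, 0 were called in either direction except with sample weights (18 higher, 7 lower) and in the range over hearts left out, 0 to 17 higher and 0 to 4 lower, the upper ends without MI replicate 2. The log2 difference of Aldh1a2, whose sign the choice of the set fixed, ran over 14 alternatives from 1.33 without MI replicate 1 to 2.20 without MI replicate 2, and was 1.72 with the replicate block. Of 120 values of the 9 genes under the alternatives, 109 moved by less than 1 SD of the replicates and 11 by more, mostly genes under 1 FPKM when the pseudocount was 0.1 or the values were TPM, such as Aldh1a3 at 2.11 and 1.57 and Crabp2 at 2.68 with the pseudocount of 0.1. In this count the values without the filter equal the main ones by construction. Those with the replicate block repeat those without sham replicate 4, so the 109 overstates how stable the values are. Cyp26b1 was the gene of the 9 that changed sign. Crabp1, with 1 fragment in all, and Stra6, with 2 to 23 a heart, are limited by depth.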
